A study of Homo sapiens with 8 samples.

Results

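The 10 genes DUSP4, DUSP5, DUSP6, SPRY2, SPRY4, SPRED1, SPRED2, ETV4, ETV5 and PHLDA1 are feedback regulators of the ERK pathway, and their transcripts were followed through cell lines selected for migration. The members were taken by name, from the probe sets whose annotation gives 1 of these symbols and no other. They are 10 of the 19775 genes with such a probe set, and 28 of the 54675 probe sets on the array. The probe set with the highest mean stands for its gene, and the remaining ones are described beside it.

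KYSE30 and KYSE180 are established human cell lines of esophageal squamous cell carcinoma with epithelial morphology. Both went through 4 successive rounds of selection in transwells, inserts with a porous membrane, and the recovered cells were grown for 2 passages to about 80% confluence before RNA was taken. The groups are 180D and 30D, the cells of KYSE180 and KYSE30 that crossed the membrane and are labelled as the more motile, and 180U and 30U, the cells that did not cross. Each group has 2 arrays, and the labels trace the sublines to 4 parental populations, each of which gave 1 D and 1 U subline. The labels name no transgene and no drug, and unselected cells were not analysed here. Values are log2 expression values from RMA, in which a difference of 1 is a 2-fold difference in signal.

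In the ERK pathway, growth factor receptors activate RAS, which starts a chain of kinases that ends in ERK. Active ERK induces transcripts whose products damp the pathway at several steps, so these transcripts are widely used as a readout of ERK output, although each also answers to other inputs. The dual-specificity phosphatases DUSP4, DUSP5 and DUSP6 remove phosphate from ERK, the Sprouty and SPRED proteins act further up the chain, and ETV4 and ETV5 are ETS transcription factors that carry the signal on to other genes. PHLDA1 is a pleckstrin-homology-domain protein that responds to growth factors. EGFR, whose signals feed into this pathway, is often abundant in squamous carcinomas of the esophagus. Transcripts do not report ERK phosphorylation, which was not measured.

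Correlations across genes ran between 0.997 and 0.998 within a group, 0.992 and 0.995 for D with U arrays of a line, and 0.860 and 0.869 across lines. In RNA controls 1 array, that of 180D replicate 1, was unlike the rest. Its 3′ signal of ACTB exceeded the 5′ signal by 1.92 (log2), where the other 7 gave 1.06 to 1.42, and its 18S rRNA signal was 11.2, where they gave 12.1 to 12.5. Of 11 squamous markers, 8 had a probe set with 1 symbol and all 8 passed the filter, but 6 of the 8 were higher in KYSE180, with a median difference of 3.11. KRT5 averaged 12.27 in 180D and 12.30 in 180U, against 4.84 in 30D and 4.63 in 30U, and KRT14 lay under the filter value of 4.46 in both KYSE30 groups. PKP1 was 44.3-fold, DSG3 10.6-fold and SOX2 7.07-fold higher in KYSE180, and SOX2 was also lower in 30D than in 30U (-1.94, limma adjusted p = 7.72e-06). EPCAM, CDH1 and SFN were high in all 4 groups. The part of these differences in the member results was not tested. Of the markers of other cell types, 3 of 8 for fibroblasts, 1 of 4 measured for immune cells and 3 of 5 for endothelium passed the filter, while LUM, FAP, PTPRC and KDR lay below it in every group. The summed fibroblast level was 8.50 in 180D and 8.10 in 180U, and 7.78 in 30D and 7.96 in 30U. Within that list COL1A1 was higher in 180D (0.58 ± 0.11, limma adjusted p = 0.0350), and its part in the results for KYSE180 was not tested.

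In KYSE180, 7 of the 10 members were lower than in KYSE30, 2 were higher and 1 did not pass the test. Over all 14180 genes tested, 67.1% passed, 31% lower and 36.1% higher. The median difference over the members was -2.10, KYSE180 minus KYSE30, against 0.05 over all genes tested. Differences between the lines come from an additive limma fit of line and fraction with p-values adjusted over all genes. In bulk RNA, fewer cells with a transcript and less transcript per cell cannot be told apart, here or in the results that follow.

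All 3 phosphatases were lower in KYSE180. DUSP4, a nuclear phosphatase for ERK and other MAP kinases, read 4.59 and 4.88 in 180D and 5.44 and 5.25 in 180U, against 9.61 and 9.78 in 30D and 9.66 and 9.73 in 30U. The KYSE180 arrays sat just above the filter value and the lines did not come near each other. The difference was -4.65 ± 0.13, or 25.2-fold (adjusted p = 1.43e-08). The other 2 DUSP4 probe sets lay below the filter value in KYSE180 and gave differences of at least 42.7-fold and 27.0-fold, measured from that value. DUSP6, the cytoplasmic phosphatase specific to ERK, read 6.16 and 5.89 in 180D and 6.00 and 5.84 in 180U, against 8.92 and 8.88 in 30D and 8.12 and 8.09 in 30U. Every KYSE30 array was above every KYSE180 array, and the difference was -2.53 ± 0.14 (5.78-fold, adjusted p = 6.16e-07). DUSP5, a nuclear phosphatase specific to ERK, read 6.44 and 5.81 in 180D and 6.22 and 6.30 in 180U, against 8.69 and 8.93 in 30D and 8.55 and 8.44 in 30U. The lines were again separate, by -2.46 ± 0.15 (5.50-fold, adjusted p = 1.14e-06).

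The inhibitors that act further up the chain were not uniform. SPRY4, a Sprouty protein that restrains RAS activation, read 4.75 and 4.50 in 180D and 4.72 and 4.78 in 180U, against 6.91 and 6.71 in 30D and 6.08 and 6.03 in 30U. KYSE180 was lower on all arrays, by -1.74 ± 0.17 (3.35-fold, adjusted p = 2.22e-05). The KYSE180 arrays of SPRY4 sat just above the filter value. SPRY2, its relative, read 6.67 and 6.61 in 180D and 6.63 and 6.84 in 180U, against 7.91 and 7.90 in 30D and 7.64 and 7.81 in 30U, a narrower but complete separation of -1.13 ± 0.08 (2.19-fold, adjusted p = 2.79e-06). SPRED1, which brings the RAS GTPase activator neurofibromin to the membrane, went the other way. It read 7.26 and 7.28 in 180D and 7.43 and 7.27 in 180U, against 6.88 and 6.88 in 30D and 6.96 and 6.90 in 30U, so that all KYSE180 arrays were above all KYSE30 arrays by 0.41 ± 0.05 (1.33-fold, adjusted p = 0.000107). SPRED2, of the same family, did not pass the test between the lines (0.15 ± 0.11, adjusted p = 0.249, 95% interval -0.10 to 0.41).

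The ETS factors ETV4 and ETV5, members of the PEA3 subfamily, differed between the lines in opposite directions. ETV5 read 5.58 and 5.59 in 180D and 6.25 and 6.41 in 180U, against 8.81 and 9.07 in 30D and 8.73 and 8.79 in 30U. No array of one line reached the other, and the difference was -2.89 ± 0.17 (7.42-fold, adjusted p = 1.11e-06), or -1.87 over the mean of its probe sets. ETV4 read 7.24 and 7.0 in 180D and 7.08 and 7.11 in 180U, against 6.46 and 6.79 in 30D and 6.59 and 6.63 in 30U. Every KYSE180 array was above every KYSE30 array, by 0.49 ± 0.08 (1.40-fold, adjusted p = 0.000736). PHLDA1 had the largest difference of the members after DUSP4. It read 7.46 and 7.58 in 180D and 7.38 and 7.60 in 180U, against 11.23 and 11.22 in 30D and 10.84 and 10.86 in 30U, a difference of -3.53 ± 0.08 (11.6-fold, adjusted p = 5.88e-09).

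**Figure D1:**
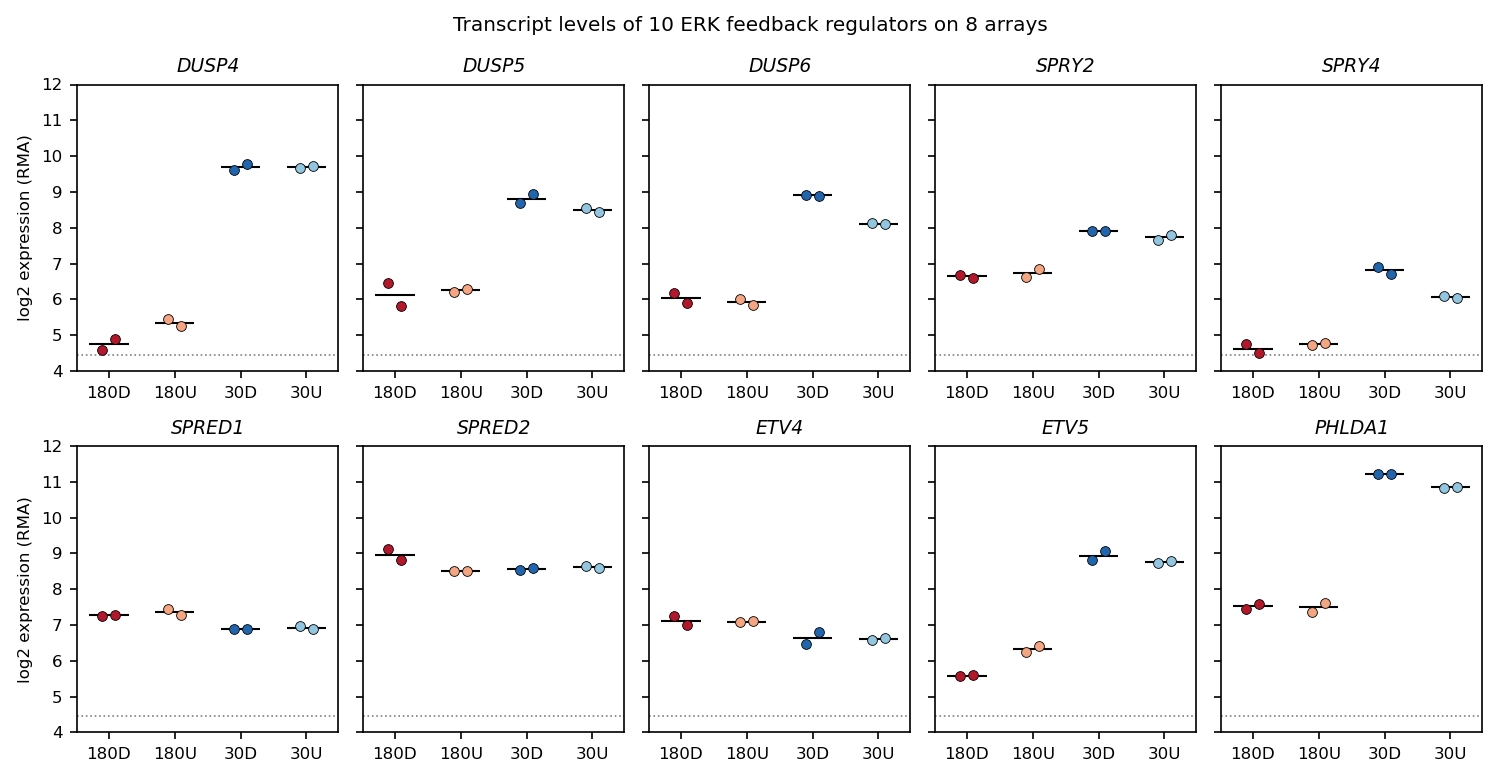
Log2 expression of each member on the 8 arrays, 1 panel per gene, with groups 180D, 180U, 30D and 30U along the x axis. Points are arrays, bars are group means and the dotted line is the filter value of 4.46. For DUSP4, DUSP5, DUSP6, SPRY2, SPRY4, ETV5 and PHLDA1 all KYSE180 points lie below all KYSE30 points, and for SPRED1 and ETV4 they lie above. Of all genes tested, 67.1% differed between the lines, and how many separated fully in this way was not counted.

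In KYSE30, DUSP6, SPRY4 and PHLDA1 rose in the cells that crossed the membrane, and no member fell. These are 3 of 10, where 16.5% of all genes tested passed (8.42% higher and 8.12% lower). The median change over the members was 0.18, against 0.01 over all genes. The DUSP6 arrays given above did not overlap between 30D and 30U, and the change was 0.79 ± 0.10 (1.73-fold, limma adjusted p = 0.00300). SPRY4 also had no overlap, with a change of 0.75 ± 0.10 (1.68-fold, adjusted p = 0.00361). The 4 PHLDA1 values were tight and separate, and the change was smaller at 0.37 ± 0.08 (1.30-fold, adjusted p = 0.0222). With 2 arrays a group such separation is weak evidence by itself, here and in KYSE180. Its share over all genes was not counted. PHLDA1 lost its call when each D subline was compared with the U subline of its own parental population (adjusted p = 0.0648). It also lost it without any single KYSE30 array (adjusted p up to 0.109).

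The remaining 7 members did not pass in KYSE30. The estimate was 0.31 ± 0.19 for DUSP5 (95% interval -0.13 to 0.76). It was 0.18 for both SPRY2 (-0.02 to 0.39) and ETV5 (-0.05 to 0.40), and in these 3 genes most of the interval was above 0. DUSP4, the member with the widest contrast between the lines, had an estimate of 0.00 ± 0.11 with an interval of -0.26 to 0.27. The intervals of SPRED1 (-0.21 to 0.11), SPRED2 (-0.28 to 0.17) and ETV4 (-0.26 to 0.29) lay on both sides of 0.

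The promoter windows of DUSP6, SPRY4 and PHLDA1, the 250 bases before the RefSeq transcription start, are shown because these members rose together in 30D, and that of SPRY2 because it holds the same kind of site as PHLDA1. The windows are from RefSeq on build GRCh38.p14, all on the minus strand: chr12:89352502-89352751 for DUSP6, chr5:142324248-142324497 for SPRY4, chr12:76031777-76032026 for PHLDA1 and chr13:80341127-80341376 for 1 of the 3 starts of SPRY2. Capitals mark CCGGAA, the only ETS site searched, or its reverse complement. Other forms of ETS site were not searched, so a window without capitals is not shown to lack one.
DUSP6: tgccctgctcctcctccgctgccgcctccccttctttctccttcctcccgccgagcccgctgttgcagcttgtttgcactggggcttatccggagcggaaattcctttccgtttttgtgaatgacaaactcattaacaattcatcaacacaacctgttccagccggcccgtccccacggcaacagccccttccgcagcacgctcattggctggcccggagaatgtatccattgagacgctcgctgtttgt
SPRY4: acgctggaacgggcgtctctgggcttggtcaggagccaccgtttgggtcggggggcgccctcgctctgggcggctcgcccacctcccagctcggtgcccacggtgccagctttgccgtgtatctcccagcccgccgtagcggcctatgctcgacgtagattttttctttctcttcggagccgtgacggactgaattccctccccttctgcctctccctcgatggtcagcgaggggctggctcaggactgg
PHLDA1: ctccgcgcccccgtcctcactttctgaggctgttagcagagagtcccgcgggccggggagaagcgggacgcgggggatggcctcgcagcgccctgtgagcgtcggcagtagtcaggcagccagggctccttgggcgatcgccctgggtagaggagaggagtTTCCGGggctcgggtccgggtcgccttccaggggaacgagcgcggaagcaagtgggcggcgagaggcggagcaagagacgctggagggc
SPRY2: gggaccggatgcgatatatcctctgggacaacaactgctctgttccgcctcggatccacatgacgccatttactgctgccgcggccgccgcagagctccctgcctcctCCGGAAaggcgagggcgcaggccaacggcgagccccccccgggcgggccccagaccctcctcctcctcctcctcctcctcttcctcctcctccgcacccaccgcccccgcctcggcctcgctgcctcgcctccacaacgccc

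CCGGAA, searched on both strands, lay at -89 from the start in PHLDA1, on the strand opposite to the gene, and at -142 in SPRY2, on the gene's strand. It was in 2 of the 9 windows of the 6 members matched in the table, DUSP6, SPRY2, SPRY4, SPRED1, SPRED2 and PHLDA1. Of all 35116 windows, 14.5% held it. The AP-1 site TGANTCA, the cyclic AMP element TGACGTCA and the CArG box bound by serum response factor were in 0 of the 9 windows, and in 6.57%, 1.65% and 1.16% of all windows. Each motif was counted on its own, and a match is a match of letters only. DUSP4, DUSP5, ETV4 and ETV5 were not matched.

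In KYSE180, ETV5 and DUSP4 fell in the cells that crossed the membrane, and no member passed as higher. These are 2 of 10, where 3.75% of all genes tested passed (1.21% lower and 2.55% higher), and the median over the members was -0.09, against 0.02 over all genes. Both ETV5 arrays of 180D lay below both of 180U, and the change was -0.74 ± 0.09 (1.67-fold, limma adjusted p = 0.00794). The DUSP4 arrays of 180D were likewise below those of 180U, with a change of -0.61 ± 0.11 (1.52-fold, adjusted p = 0.0362), at levels close to the filter value. Without the array of 180D replicate 1, the change was -0.74 for ETV5 (adjusted p = 0.0670) and -0.46 for DUSP4 (adjusted p = 0.132). Leaving out 180U replicate 2 also ended the ETV5 call (adjusted p = 0.0589), and the DUSP4 call was kept without 180D replicate 2 and lost without any other array (adjusted p up to 0.141).

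SPRED2 read 9.11 and 8.81 in 180D and 8.52 and 8.52 in 180U, against 8.52 and 8.60 in 30D and 8.64 and 8.59 in 30U. Both 180D arrays were above the other 6. The estimate within KYSE180 was 0.44 ± 0.10 (1.36-fold), which missed the threshold (limma adjusted p = 0.0550). It passed with a filter at the 60th percentile (adjusted p = 0.0294) and with an intensity trend (0.00535). Without 180D replicate 1 it was 0.29 (adjusted p = 0.113), and without 180D replicate 2 it was 0.59 (adjusted p = 0.0149). The genes that rose in 30D gave small estimates in KYSE180: DUSP6 0.11 ± 0.10 (95% interval -0.12 to 0.34), SPRY4 -0.13 ± 0.10 (-0.36 to 0.11) and PHLDA1 0.03 ± 0.08 (-0.16 to 0.22). SPRY4 lay close to the filter value there, where RMA compresses low signals, so a change could be understated. DUSP5 (-0.57 to 0.31), SPRY2 (-0.30 to 0.11), SPRED1 (-0.23 to 0.08) and ETV4 (-0.26 to 0.30) had intervals on both sides of 0.

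**Figure D2:**
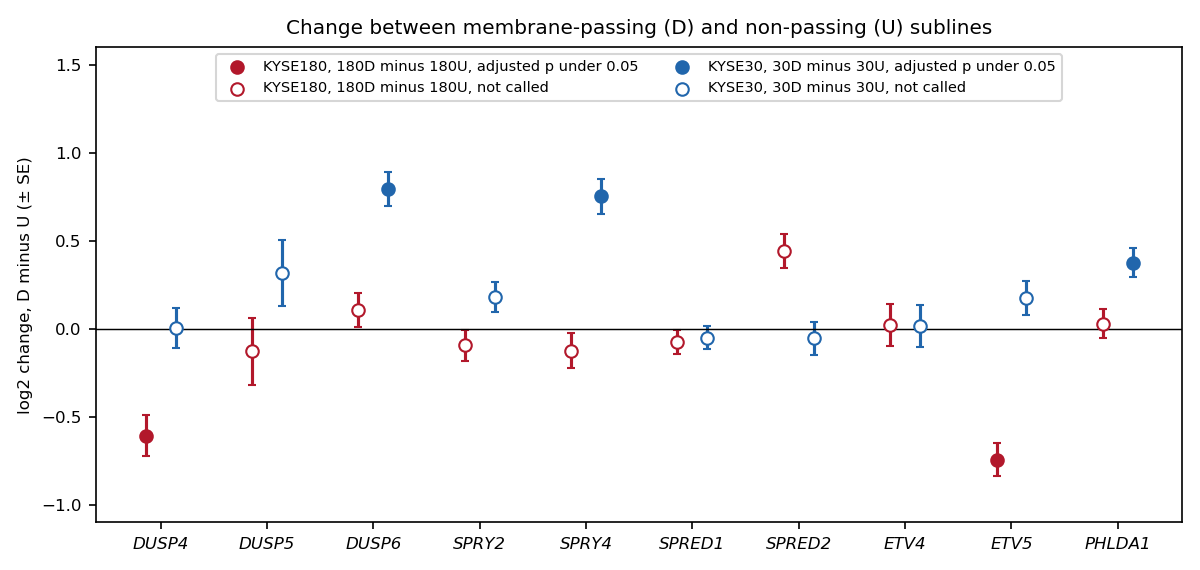
Log2 change, D minus U, of each member in KYSE180 and in KYSE30, with bars for the SE of the limma fit (2 arrays a group). Filled points have an adjusted p under 0.05. In KYSE30 the filled points are DUSP6, SPRY4 and PHLDA1, all above 0, and in KYSE180 they are DUSP4 and ETV5, both below 0.

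Tested directly, the change differed between the lines for 3 members, ETV5, SPRY4 and DUSP6, all lower in KYSE180 relative to KYSE30. Of all genes tested, 12.2% passed this test (5.21% lower and 6.94% higher), and the median over the members was -0.39, against 0.01 over all genes. The difference, the change in KYSE180 minus that in KYSE30, was -0.92 ± 0.13 for ETV5 (limma adjusted p = 0.00715), -0.88 ± 0.14 for SPRY4 (adjusted p = 0.00972) and -0.69 ± 0.14 for DUSP6 (adjusted p = 0.0219). In the fit blocked on parental population DUSP6 no longer passed (adjusted p = 0.0684), and DUSP4 did (-0.61 ± 0.16, adjusted p = 0.0265 with the block and 0.0517 without). ETV5 was at -0.48 and missed with the mean of its probe sets (adjusted p = 0.0655), where DUSP4 was at -0.12 and PHLDA1 at -0.07. SPRED2 (0.50 ± 0.13, adjusted p = 0.0571) and PHLDA1 (-0.35 ± 0.12, adjusted p = 0.102) did not pass. Their changes are thus not shown to differ between the lines. With the 60th percentile filter, SPRED2 (adjusted p = 0.0319) and DUSP4 (adjusted p = 0.0286) passed. With an intensity trend, SPRED2 (adjusted p = 0.00956), DUSP4 (adjusted p = 0.0117) and PHLDA1 (adjusted p = 0.0251) passed. The changes of the lines rest on separate arrays, and SPRY4 lay close to the filter value in KYSE180. With 1 array left out, DUSP6 missed the threshold without any KYSE30 array and without 180U replicate 1 (adjusted p up to 0.0771). In the same way SPRED2 and DUSP4 passed without 180D replicate 2 (adjusted p = 0.0113 and 0.0290), PHLDA1 without 180U replicate 1 (0.0359) and DUSP5 without 180D replicate 1 (0.0356).

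Taken over both lines, 0 of 10 members passed in the additive limma fit, where 0.874% of all genes tested did. DUSP6 (0.45, adjusted p = 0.190) and PHLDA1 (0.20, adjusted p = 0.298) were the 2 members with an unadjusted p under 0.05. Of all 14180 genes tested, 2265 had such a p. The fit of 4 group means leaves the unequal changes of the lines out of the spread. It called 3 members, and 1281 of all 14180 genes tested. The members were DUSP6 at 0.45 (adjusted p = 0.0112), SPRY4 at 0.31 (adjusted p = 0.0377) and ETV5 at -0.28 (adjusted p = 0.0450). For DUSP6, SPRY4 and ETV5 these averages join changes that differed between the lines in the direct test.

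The further probe sets of a member bore on some of these calls. When every probe set past the filter was tested on its own, all 3 of DUSP6 rose in 30D, by 0.79, 0.90 and 0.97. Of 6 for PHLDA1, 3 rose (0.37, 0.45 and 0.47) and the others gave -0.16, 0.03 and -0.17, none of which passed, so that the probe sets of PHLDA1 disagreed. SPRY4 has 1 probe set. In KYSE180, 1 of the 4 ETV5 probe sets past the filter fell (-0.74), and the others gave -0.33, -0.32 and 0.32 and did not pass. The DUSP4 probe set used had an adjusted p of 0.0527 in that wider limma fit, and the other 2, at levels below the filter value in KYSE180, gave 0.22 and -0.28. Averaged over a gene's probe sets, the changes in KYSE180 were -0.27 for ETV5 (adjusted p = 0.209) and -0.22 for DUSP4 (adjusted p = 0.370), and the change of PHLDA1 in KYSE30 was 0.17 (adjusted p = 0.107). Between the lines, all probe sets of a gene past the filter went in 1 direction, with 19 of 24 lower in KYSE180, 4 higher and the one of SPRED2 not called. Probe sets of a gene are not independent, and the other 2 of DUSP4 passed the filter only through their KYSE30 levels. A PHLDA1 probe set averaged 4.57 in 180D and 4.13 in 180U, the latter under the filter value, against 7.98 in 30D and 8.14 in 30U. The share over all probe sets was not counted.

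**Figure D3:**
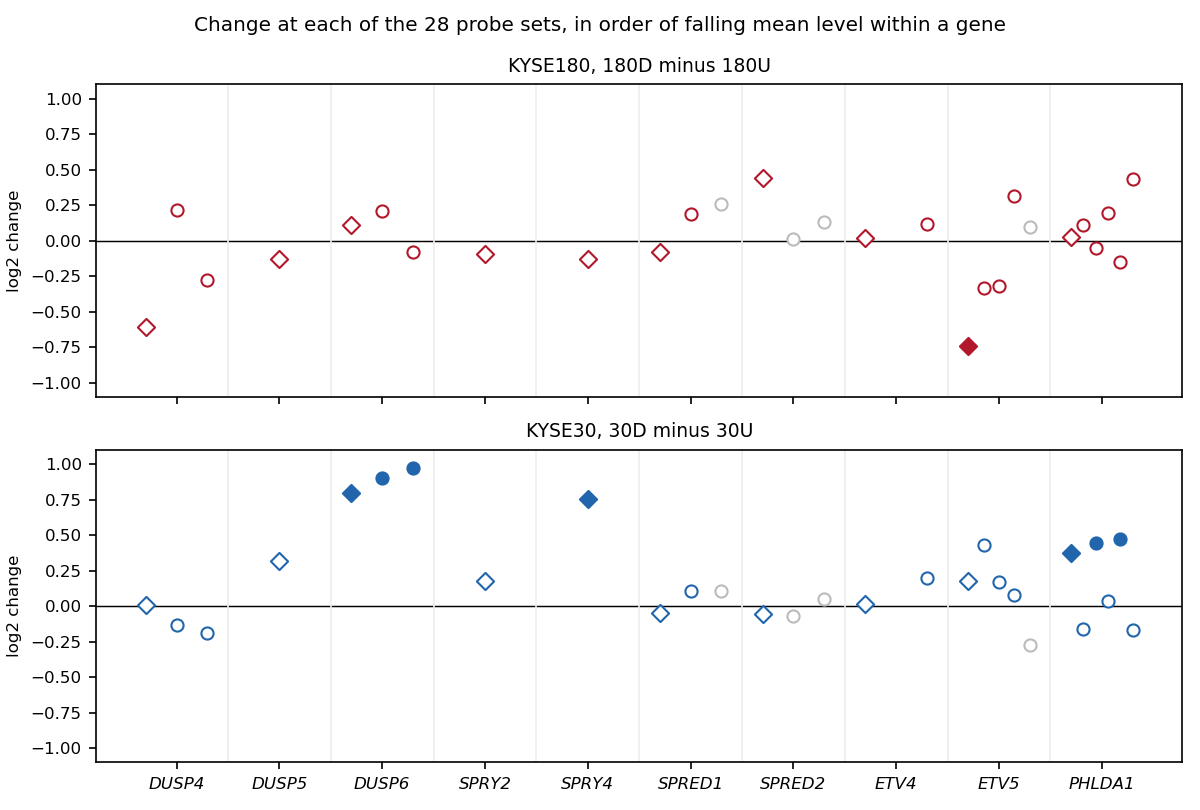
Log2 change, D minus U, at each of the 28 member probe sets, with KYSE180 in the upper panel and KYSE30 in the lower. Diamonds are the probe sets used, filled symbols have an adjusted p under 0.05 and grey symbols lie below the filter. The 3 DUSP6 probe sets are filled in KYSE30, PHLDA1 has 3 filled and 3 open, and 1 ETV5 probe set is filled in KYSE180.

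Ranked from high to low, the 4 groups fell in the order 30D, 30U, 180U, 180D for DUSP4, DUSP5, SPRY2, SPRY4 and ETV5, and in the order 30D, 30U, 180D, 180U for DUSP6 and PHLDA1. SPRED1 and ETV4 had the KYSE180 groups on top. Of the 30 steps between neighbours, 15 passed the limma test. Between single groups of the 2 lines, 64.1% of all genes tested passed for 180U against 30D and 64.5% for 180U or 180D against 30U. For every member but SPRED2 the step between the lines passed, with an adjusted p of 0.00949 or less. The step between 30D and 30U passed for DUSP6, SPRY4 and PHLDA1, and the step between 180U and 180D for DUSP4 and ETV5. For SPRED2 the 180D group stood above 30U (adjusted p = 0.0143), and 30U, 30D and 180U did not differ beyond their spread.

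The genes whose profiles lay nearest to that of a member were found by the root mean square difference over the 8 arrays, each profile centred on its mean, as a description over arrays that share 4 groups. Nearest to DUSP6 were CELF2 (0.144), the interferon-induced ISG15 (0.152) and ST6GAL1 (0.159). Nearest to SPRY4 were the RNA sensor RIGI (0.124), HERC4 (0.138) and TMEM40 (0.15). Nearest to ETV4, with its small range, were GIPC3 (0.0505), RASAL1 (0.0559) and RPUSD1 (0.0654).

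Other genes of the pathway put the members in context. Of all genes tested, 16.5% passed in KYSE30, 3.75% in KYSE180 and 67.1% between the lines. The counts of the 16 kinases and adaptors that follow are not shown to differ from those shares. Of the 16 tested of 21 genes of the ERK cascade core, 1 rose in 30D, the kinase of ERK, MAP2K1 (0.26 ± 0.06, limma adjusted p = 0.02, and up to 0.125 without a KYSE30 array), and the ERK kinase MAPK3 gave -0.24 (adjusted p = 0.0508). MAPK3 passed under 5 alternatives (filter at the 60th percentile, mean of probe sets, median centring, quantile normalization and intensity trend), with adjusted p between 0.0226 and 0.0481. In 180D, 0 of the 16 passed, with 3 at an unadjusted p under 0.05, against 2721 of all 14180 genes tested. Nearest of the 16 to the threshold was RPS6KA3 (-0.24, limma adjusted p = 0.0657). It passed with the 60th percentile filter (0.0345), median centring (0.0413) and an intensity trend (0.0310), but was at 0.03 over the mean of its probe sets. Of 4 tested of 8 RAS GTPase activators, 0 passed in either line, with 0 in KYSE180 and 1 in KYSE30 at an unadjusted p under 0.05. Of all 14180 genes tested, 2721 had such a p in KYSE180 and 4380 in KYSE30. RASA2 passed in 30D with the mean of its probe sets (0.41, adjusted p = 0.0195, against 0.15 for the probe set used), as did the difference of its changes, KYSE180 minus KYSE30 (-0.52, adjusted p = 0.0379). Between the lines the core was divided, with 8 of 16 higher and 6 lower in KYSE180, among them the scaffold KSR1 (-0.91), the receptor EGFR (-0.77), HRAS (0.43) and the adaptor GAB1 (0.63). Over the mean of their probe sets KSR1 was at -0.16, EGFR at -0.28 and GAB1 at 0.32, and all 3 passed.

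Close relatives of the members followed no single direction. For the counts here, 16.5% of all genes tested passed in KYSE30 and 3.75% in KYSE180. Between the lines 36.1% were higher and 31% lower in KYSE180. PHLDA2 rose in 30D (0.46 ± 0.06, limma adjusted p = 0.00327) and was lower in 180D (-0.41 ± 0.06, adjusted p = 0.0129, or 0.0689 with the parental block, and -0.06 over the mean of its probe sets), and these changes differed between the lines (-0.87, adjusted p = 0.00142, and -0.38 over the mean of its probe sets). PHLDA3 was lower in 30D (-0.23, adjusted p = 0.0478, or 0.103 with the block). Of 5 tested of 6 relatives, 3 were lower in KYSE180, including SPRY1, whose group means lay below the filter value there and which was at least 9.94-fold lower. Of 11 other dual-specificity phosphatases, DUSP2 fell in 30D (-0.63 ± 0.06, adjusted p = 0.000764), DUSP7 was higher (0.33 ± 0.07, adjusted p = 0.0171, and up to 0.109 without a KYSE30 array), and DUSP10, which acts mainly on p38 and JNK, was lower (-0.21, adjusted p = 0.0311, or 0.0846 with the block). In 180D, 0 of the 11 passed, with 3 at an unadjusted p under 0.05, against 2721 of all 14180 genes tested. Between the lines 3 of the 11 were higher and 5 lower in KYSE180, with DUSP10 12.7-fold lower and DUSP16 higher by 1.01.

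A wider set of ERK-induced genes was mixed. Of 18 tested of 20, 7 were higher and 3 lower in 30D, with a median change of 0.18. Over all genes tested, 8.42% were higher and 8.12% lower, with a median of 0.01. The growth regulator MYC (1.02 ± 0.06, limma adjusted p = 0.000170) and IER3 (0.52 ± 0.05, adjusted p = 0.000995) rose, and so did FOSL1 (0.72), CXCL8 (0.71), LIF (0.53), PLAUR (0.46) and the cyclin CCND1 (0.40), which are named after their values were seen. LIF alone of these 7 missed with 1 array left out (adjusted p up to 0.102). The immediate early factor EGR1, a standard ERK target, fell by 1.01 (adjusted p = 0.000331). EPHA4 fell by 0.61 (adjusted p = 0.00263), and FOS, named after its value was seen, was at -0.23 (adjusted p = 0.0448, or 0.0743 with the block). In 180D, 3 were higher and 1 lower, with a median of 0.08, where 2.55% of all genes tested were higher and 1.21% lower. CXCL8 rose (0.90 ± 0.11, adjusted p = 0.00590, or 0.0541 without 180U replicate 2). FOS passed (adjusted p = 0.00654, or 0.0507 with only the KYSE180 arrays), but its means of 4.41 in 180D and 3.90 in 180U both lay under the filter value, so no size is given. EPHA4 (0.41, or 0.26 over the mean of its probe sets, adjusted p = 0.0303) and IER3 (-0.23, adjusted p = 0.0464) passed but did not with the block (0.0592 and 0.132). Between the lines 5 were higher and 10 lower in KYSE180, with a median of -0.57. Over all genes tested, 36.1% were higher and 31% lower, with a median of 0.05. The EGFR inhibitor ERRFI1 was 10.2-fold lower, EPHA2 4.80-fold lower and PLAUR 4.79-fold lower, while LRIG1, which restrains EGFR family receptors, was at least 12.6-fold higher and lay below the filter value in KYSE30.

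Among 14 tested of 17 receptors and ligands of the ERBB, FGF and MET families, 3 ligands of EGFR rose in 30D, of which BTC missed without 30U replicate 2 (adjusted p = 0.0532). These were HBEGF (0.82 ± 0.12, limma adjusted p = 0.00552, and 0.48 over the mean of its probe sets), BTC (0.51 ± 0.08, adjusted p = 0.00695) and TGFA (0.44 ± 0.06, adjusted p = 0.00503). The receptor FGFR3 fell by 0.47 (adjusted p = 0.00600) and FGFR2, named after its value was seen, was at -0.25 (adjusted p = 0.0418, or 0.0529 with the block, and -0.04 over the mean of its probe sets). In 180D, FGF2 rose (0.65 ± 0.08, adjusted p = 0.00783, or 0.0575 without 180U replicate 1), and FGFBP1 (-0.44, adjusted p = 0.0105) and TGFA (-0.33, adjusted p = 0.0376) were lower but did not pass with the block (0.0613 and 0.117), and TGFA was at -0.10 over the mean of its probe sets. Between the lines 5 were higher and 8 lower in KYSE180. Of all genes tested, 67.1% passed between the lines, 16.5% in KYSE30 and 3.75% in KYSE180. The EGFR ligand EREG averaged under the filter value in KYSE180 and was at least 14.9-fold lower, FGFR2 was 18.5-fold higher (4.21, or 1.84 over the mean of its probe sets) and FGFR4 was higher by 1.52 (or 0.61).

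**Figure D4:**
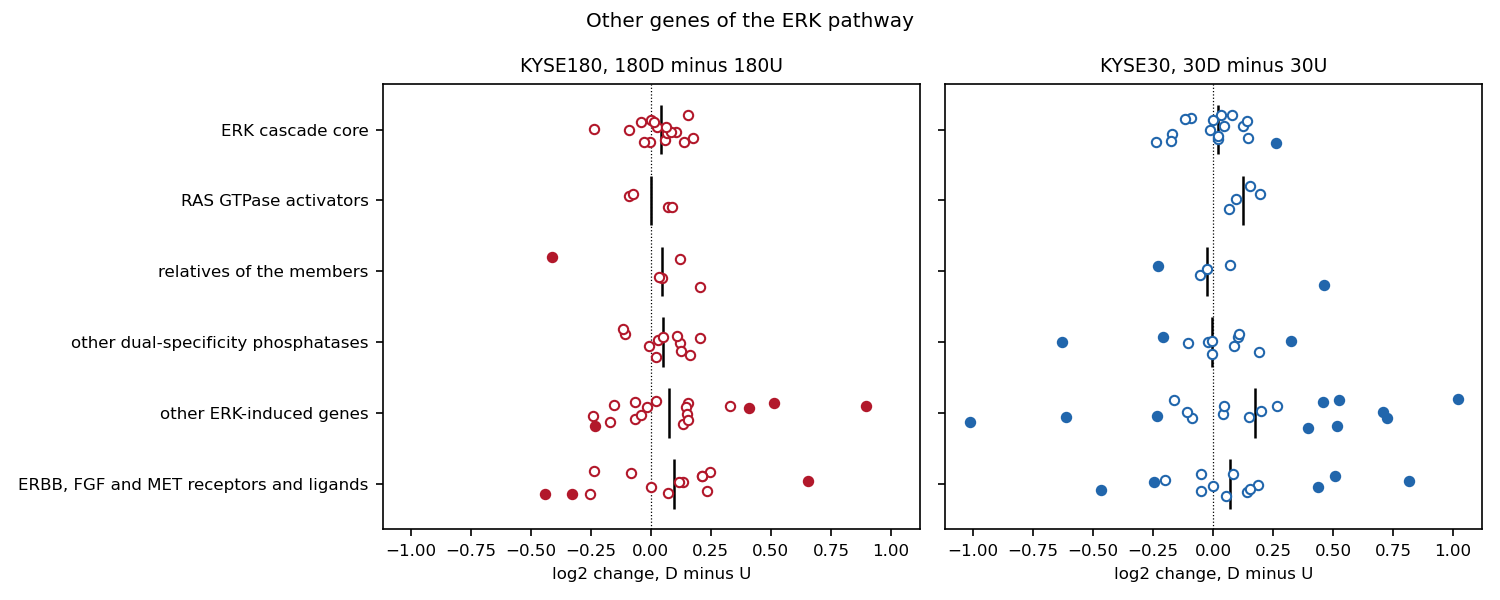
Log2 change, D minus U, of each tested gene in 6 lists of other ERK pathway genes, with KYSE180 on the left and KYSE30 on the right. Each point is a gene, filled where the adjusted p was under 0.05, and the vertical bars are list medians. The cascade core sits close to 0 in both lines, and the ERK-induced genes spread to both sides in KYSE30.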

How the data were processed

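Transcripts were measured on 8 Affymetrix arrays, 2 in each of 4 groups. The authors deposited log2 values made with RMA, per the submitters' processing notes; no source used here gives its version. RMA equalises the arrays' distributions, which hides any change in total RNA per cell, and it compresses low signals. Of 54675 probe sets, 41091 had 1 gene symbol and were used, controls left out, and 1801 had several. Symbols were updated by Entrez ID for 41037. Probe sets with a mean under the 40th percentile (4.46) were left out, which kept 14180 genes and all 10 members.

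Tests used limma 3.58.1 in R 4.3.3 (lmFit and eBayes, two-sided, Benjamini-Hochberg over all genes tested, threshold 0.05): a fit of 4 group means for changes within lines and their difference, and an additive fit of line and fraction. The code was tested on simulated data. Any pair of arrays differed at 99.7% of probe sets or more. Groups share 1 estimate of the spread, which is that between separately selected populations, and 2 arrays a group limit the precision.

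All members are named, with up to 4 genes with the smallest p of each of 6 pathway lists per comparison and the 3 nearest profiles of DUSP6, SPRY4 and ETV4. Members and lists were chosen with earlier results of these data known. Alternatives were other filters, probe set means, array centring, quantile normalization, an intensity trend, fewer arrays and the parental population as a block, which the labels give. Deviations of D and U arrays of 1 parental population correlated at 0.02 in KYSE180 and -0.02 in KYSE30.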

Additional observations from a re-analysis of the deposited data

Results flagged for a closer look

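The D minus U change differed between the lines for 3 members when the difference itself was tested in limma. The D minus U estimate of DUSP6 was 0.11 in KYSE180 and 0.79 in KYSE30, a difference of -0.69 (adjusted p = 0.0219). For SPRY4 it was -0.13 in KYSE180, at levels close to the filter value, and 0.75 in KYSE30, a difference of -0.88 (adjusted p = 0.00972). For ETV5 it was -0.74 in KYSE180 and 0.18 in KYSE30, a difference of -0.92 (adjusted p = 0.00715). DUSP6 missed the threshold in the fit blocked on parental population (adjusted p = 0.0684) and without any KYSE30 array or 180U replicate 1 (adjusted p up to 0.0771). ETV5 was at -0.48 and did not pass with the mean of its probe sets (adjusted p = 0.0655). Groups of 2 arrays are too small to test a single array as an outlier.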

How the results depend on the processing

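Arrays of 2 per group limit the precision, and low signals limit DUSP4 and SPRY4 in KYSE180. The calls of DUSP6 and SPRY4 in KYSE30 were kept under every alternative in which they were tested, with adjusted p up to 0.0248 and 0.0304 when 1 array was left out, and SPRY4 was not tested with the 60th percentile filter. No member or count changed direction past the threshold. In KYSE180, 2 members were called, against 1 with no filter, 0 with the mean of a gene's probe sets, 1 with only the KYSE180 arrays and 0 to 3 with 1 array left out. For the difference of the changes 3 members were called, against 6 with an intensity trend and 2 to 5 with 1 array left out, and the ETV5 difference missed with the mean of its probe sets (adjusted p = 0.0655). Over both lines 0 members were called, 3 in the fit of 4 group means. SPRED2 also passed in KYSE180 with the 60th percentile filter (limma adjusted p = 0.0294) and an intensity trend (limma adjusted p = 0.00535). PHLDA1 missed in KYSE30 with the mean of its probe sets (limma adjusted p = 0.107) and with the parental block (limma adjusted p = 0.0648). In KYSE30, 2 to 3 were called with 1 array left out. Among all genes, counts moved over 1.5 times: in KYSE30 834 to 2553 with 1 array left out, against 2346; in KYSE180 311 with no filter, 1069 with an intensity trend, 230 with the parental population as a replicate block, 195 with its arrays alone and 209 to 502 with 1 array left out, against 532; for the difference 1142, 2700 and 1011 under the first 3 of these and 727 to 1702 with 1 array left out, against 1723; over both lines 195 with the trend, 0 with the block, 1281 with group means and 16 to 77 with 1 array left out, against 124. The block changed the member calls named above and no other member call. The cause of these shifts was not tested.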
